A study of Mus musculus with 6 samples.

Results

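The genes described here encode the chaperones, the degradation machinery, the translocation channel and the stress sensors of the endoplasmic reticulum (ER), the compartment in which membrane and secreted proteins fold. They were chosen by name: 33 symbols of the unfolded protein response and its machinery, all 33 of which were among the 34573 genes of the count table. RNA was sequenced from double negative 3 (DN3) thymocytes, immature T cells of the thymus sorted from the adult thymus as CD4-CD8-CD44-CD25+, and the mice were 6 to 8 weeks old, of mixed C57BL/6 and 129 background. All mice carried the floxed gene Rpl22l1 (written f/f in the labels), which encodes a paralog of the ribosomal protein Rpl22. The 3 libraries of the WT group came from mice without Cre recombinase, and the 3 of the L1 KO group from mice with it. The series text names the Cre as Vav-Cre, driven by a promoter active in blood-forming cells. The presence of Cre itself cannot be told apart from the deletion. In that text the genotypes are swapped with respect to Cre, and the labels of the samples were followed.

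Sensors in the ER membrane start the unfolded protein response, namely IRE1 (gene Ern1), PERK (gene Eif2ak3) and ATF6. IRE1 cuts a short segment out of the Xbp1 mRNA, which then encodes an active transcription factor, PERK slows translation by phosphorylating an initiation factor, and ATF6 is freed by a pair of Golgi proteases to act as a transcription factor. ATF6 and XBP1 raise the genes of chaperones and of ER-associated degradation, the pathway that returns misfolded proteins to the cytosol for the proteasome. DN3 cells pass through the checkpoint at which the pre-T cell receptor, itself a product of the ER, must reach the surface.

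Reads counted to genes numbered 13887672 to 28128186 per library. Levels are given in CPM, the reads of a gene relative to its library's reads in genes that passed the count filter. These library totals were scaled by the trimmed mean of M-values (TMM). Rpl22l1 was at 86.3, 123 and 118 CPM in WT 1 to 3 and at 18.6, 19.996 and 26.1 CPM in KO 1 to 3, so each library matched its label. The sorted cells carried the DN3 markers that were listed for them: 9 such genes, among them Il2ra, Ptcra, Cd3e and Rag1, summed to 7914 to 8432 CPM in WT and 7694 to 8283 CPM in KO, against 6.44 to 8.14 and 6.11 to 11.05 CPM for Cd4, Cd8a, Cd8b1 and Cd44 together. None of these 13 markers passed in the fit on group alone, which called 4.57% of all tested genes. With a block for the library number, Il2ra and Cd44 were higher in KO and Rag1, Bcl11b and Lck lower. Their log2 fold changes were 0.31, 1.05, -0.37, -0.17 and -0.18 in that order. The fit with the block called 9.96% of all tested genes higher and 10.3% lower. Cd44 had 1.14, 1.90 and 1.53 CPM in WT and 1.56, 3.88 and 4.54 CPM in KO. The part of these shifts in the results on ER genes was not tested. Both number 1 libraries deviated from their groups in a shared direction, with a correlation of 0.58 between their deviations from the group means across all 13729 tested genes. Same-numbered libraries were therefore also compared as pairs, by adding the replicate number as a block to the model. For numbers 2 and 3 this pairing is not established. Whether each library is a different mouse is not stated, so the p-values reflect no more than the spread among these 6 samples, which may be technical.

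Of the 33 ER genes, all of which passed the count filter, only Xbp1 was called in the fit on group alone, against 4.57% of all tested genes called in either direction. It was lower in KO, which makes 1 of 33 lower (3.03%) against 2.43% of all tested genes, and 0 of 33 were higher against 2.14%, in edgeR's quasi-likelihood test at a Benjamini-Hochberg adjusted p under 0.05. At an unadjusted p under 0.05, 3 were higher and 3 lower, 18.2% of the group against 23.4% of all tested genes. DESeq2 called 0 higher and 2 lower, Xbp1 and Ern1, and limma-voom called 0 higher and 1 lower. Over all genes, in either direction, DESeq2 called 1222 and limma-voom 534, against 628 in the edgeR fit on group alone. With the replicate block, Hspa5, Calr, Canx and Ssr2 were higher and Xbp1, Ern1 and Mbtps1 lower, which is 4 of 33 higher (12.1%) against 9.96% of all genes and 3 of 33 lower (9.09%) against 10.3%. In either direction the block called 20.3% of all genes. These shares lie near those of the whole table, so the count of calls does not set the ER genes apart. The direction was uneven: 22 of 33 log2 fold changes were positive, 66.7% against 48.8% of all genes, with a median of 0.03 against -0.0066. The lean was not particular to these genes. Of 91 other ER genes, described below, 58 were positive (63.7%), with a median of 0.04.

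**Figure D1:**
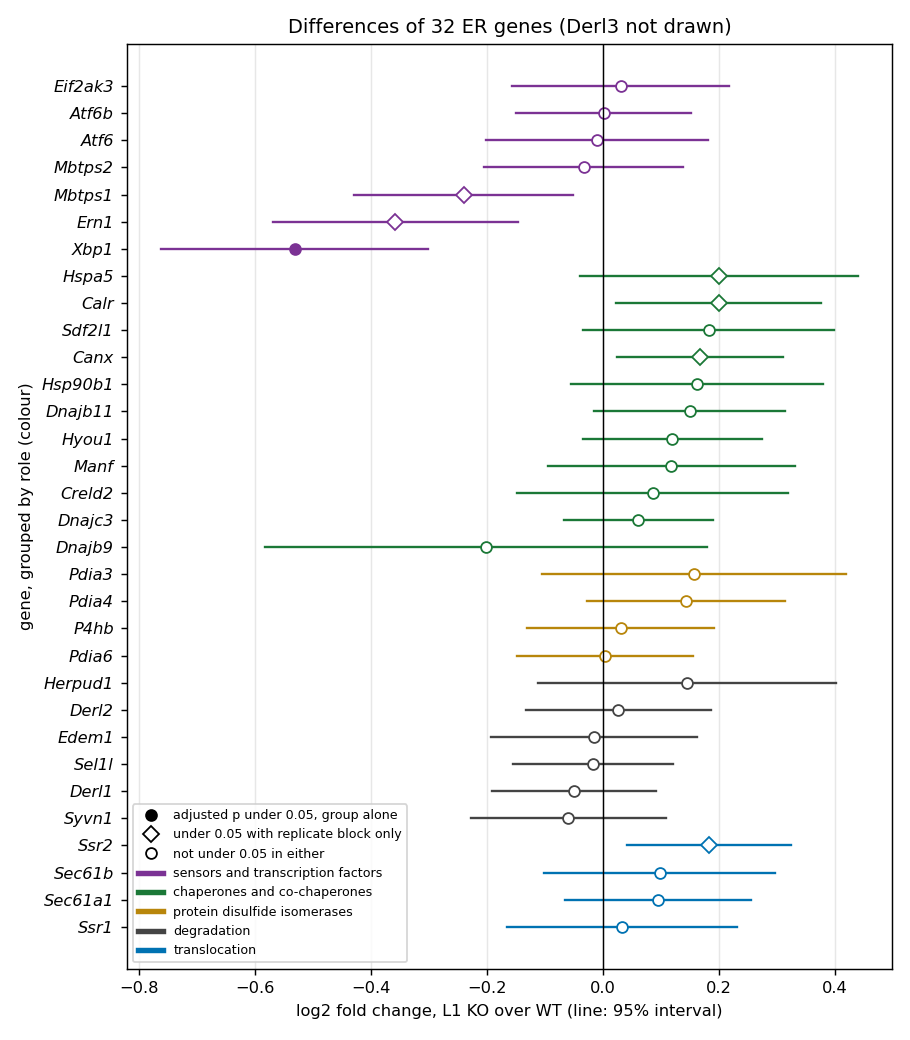
The log2 fold change of KO over WT (x axis) with its 95% interval is drawn for 32 of the 33 ER genes (y axis), grouped by role; Derl3 is left out because its interval is too wide for the axis. Xbp1 at -0.53 is the filled point farthest to the left, and diamonds mark the genes called with the replicate block alone.

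Xbp1 encodes the transcription factor of the IRE1 branch. Its level was 192, 246 and 237 CPM in WT 1 to 3 and 156, 144 and 168 CPM in KO 1 to 3. All 3 KO libraries lay below the lowest WT library. The means were 225 ± 29.0 and 156 ± 12.4 CPM (SD, n = 3). KO thus held 69.2% of the WT level. The log2 fold change was -0.53 ± 0.10 (standard error, SE), with a 95% interval of -0.76 to -0.30 and an adjusted p of 0.0236, or 0.00301 with the block. Pair by pair the difference in log2 CPM was -0.30, -0.78 and -0.49. The call was lost when WT 2, WT 3, KO 2 or KO 3 was left out, at adjusted p of 0.117, 0.0844, 0.117 and 0.0553, with log2 fold changes of -0.46, -0.49, -0.47 and -0.58 in that order. Without both number 1 libraries it was -0.64, at an adjusted p of 0.000307. In bulk RNA, fewer cells that express a gene and less of its RNA per cell cannot be told apart.

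Xbp1 is also abundant in plasma cells and dendritic cells, so their markers were read beside it. The 8 dendritic markers summed to 8.64 to 10.7 CPM in WT and 4.2 to 6.00 CPM in KO. Of these, 2, Cd74 and H2-Eb1, were lower in KO, and Xcr1 had 0 reads in all libraries. The 10 B and plasma cell markers summed to 212 to 287 CPM in WT and 292 to 336 CPM in KO, mostly from Ighm. Of these, Cd79b was lower, 0 were higher and Ms4a1 had 0 reads. Ighm, at 156 to 216 CPM in WT and 232 to 277 CPM in KO, had an adjusted p of 0.0556. The 7 myeloid markers summed to 24.3 to 30.2 and 24.7 to 31.4 CPM with 0 called, and the 8 epithelial and stromal markers to 204 to 237 and 214 to 239 CPM, with Pdgfrb higher and Epcam lower. With the block the dendritic markers H2-Ab1 and Itgax were lower too, which makes 4 of the 4 that passed the count filter. That fit called 10.3% of all tested genes lower. However, Cd74, H2-Eb1 and Itgax passed the filter through their WT libraries, so the filter itself favours a lower level in KO. Their reads were few, as for H2-Eb1 with 17, 11 and 14 in WT and 4, 6 and 2 in KO. The count of 4 therefore carries little weight. With the block the calls in the other lists of this paragraph were the same. The part of these cells in the fall of Xbp1 was not tested.

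The count of Xbp1 reads says nothing of its splicing by IRE1. The segment that IRE1 removes is 26 bases of coding sequence, shown here in capitals with the bases beside it because a gene count treats a transcript with and without it alike. It was found in 3 of the 4 Xbp1 transcripts of GENCODE M21, at bases 815 to 840 of the one that is 2129 bases long. Reads of either form add to the same gene.
Xbp1: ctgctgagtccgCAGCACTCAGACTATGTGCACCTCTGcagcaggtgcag

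Ern1, the gene of IRE1, had 162, 135 and 130.1 CPM in WT and 119.9, 110.2 and 103 CPM in KO. The groups did not overlap. In the fit on group alone it missed the threshold, with -0.36 ± 0.09 on the log2 scale (adjusted p of 0.0623). It passed with the block, at -0.35 ± 0.06 and an adjusted p of 0.00129. Mbtps1 encodes the site-1 protease, the first of the proteases that free ATF6. Its levels were 297, 274 and 307 CPM in WT and 274, 242 and 228 CPM in KO, where the highest KO library just reached the lowest WT library. Its log2 fold change was -0.24 ± 0.08, at an adjusted p of 0.128, or 0.0226 with the block. Without both number 1 libraries Ern1 had -0.31 at an adjusted p of 0.00355 and Mbtps1 had -0.31 at 0.00657.

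The other sensors showed no difference that passed in either fit. Eif2ak3, the gene of PERK, had 35.7, 38.2 and 40.8 CPM in WT and 41.8, 38.9 and 36.4 CPM in KO. Atf6 had 26.2, 28.0 and 26.8 CPM in WT and 24.5, 27.1 and 29.0 CPM in KO. The groups of both genes overlapped, with 95% intervals of the log2 fold change of -0.16 to 0.22 for Eif2ak3 and -0.20 to 0.18 for Atf6. Atf6b, the gene of the related factor ATF6 beta, had means of 88.1 ± 3.33 and 88.2 ± 4.997 CPM. Mbtps2, the gene of the site-2 protease, had 25.4 ± 0.50 and 24.8 ± 1.23 CPM, but 28.4% of its exonic bases are shared with Yy2 on the same strand, so its count is uncertain. Of the 7 sensors and transcription factors, 5 had a negative log2 fold change, and none was higher in KO in either fit.

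**Figure D2:**
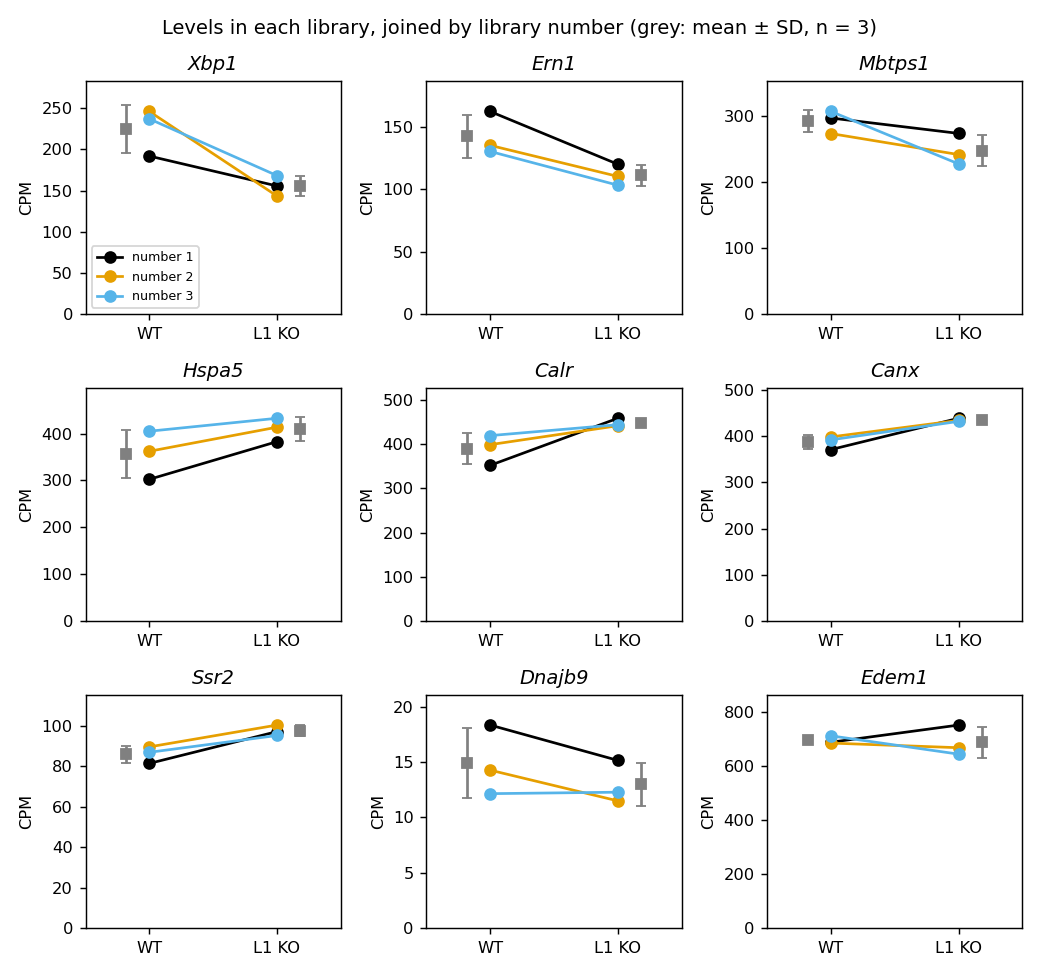
CPM in WT and L1 KO (x axis) is drawn for 9 ER genes, 1 per panel, with each line joining the libraries of 1 number and grey squares giving mean ± SD of 3 libraries. Xbp1, Ern1 and Mbtps1 are lower in KO on all 3 lines, Hspa5, Calr, Canx and Ssr2 are higher on all 3, and the lines of Dnajb9 and Edem1 differ in direction.

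Among 11 chaperones and co-chaperones, 10 leaned upward in KO (median log2 fold change of 0.15), but none passed in the fit on group alone. In that fit 2 had an unadjusted p under 0.05 (18.2% against 23.4% of all tested genes). Hspa5 encodes BiP, the main ER chaperone of the heat shock protein 70 family and the protein that holds the sensors inactive. It had 302, 362 and 405 CPM in WT and 383, 414 and 433 CPM in KO. The groups overlapped, since KO 1 lay below WT 3. The log2 fold change was 0.20 ± 0.11, with a 95% interval of -0.04 to 0.44 and an adjusted p of 0.287. With the block it was 0.21 ± 0.06, at an adjusted p of 0.0269.

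Calr and Canx encode calreticulin and calnexin, lectins that hold newly made glycoproteins until they fold. Calr had 352, 399 and 419 CPM in WT and 458, 441 and 444 CPM in KO. Canx had 371, 398 and 392 CPM in WT and 438, 434 and 432 CPM in KO. In both genes all KO libraries lay above all WT libraries. The log2 fold change was 0.20 ± 0.08 for Calr and 0.17 ± 0.06 for Canx, with adjusted p of 0.168 and 0.154, or 0.0392 and 0.0425 with the block. Over all ER genes the KO libraries lay above the WT libraries in 4 (12.1%), against 13.8% of all tested genes, and below in 2 (6.06%), against 14.7%. The 4 were Calr, Canx, Dnajb11 and Ssr2, and the 2 were Xbp1 and Ern1.

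Hsp90b1, the gene of the ER paralog of heat shock protein 90, had 325, 413 and 402 CPM in WT and 422, 408 and 446 CPM in KO. WT 1 lay below the other WT libraries, of which WT 2 reached the KO range and WT 3 did not, and the log2 fold change was 0.16 ± 0.10, at an adjusted p of 0.342. Sdf2l1, a partner of BiP that is readily induced by ER stress, had 29.3, 30.0 and 36.0 CPM in WT and 38.4, 35.5 and 34.1 CPM in KO. Herpud1, a stress-induced component of the degradation complex, had 33.6, 38.7 and 46.3 CPM in WT and 43.8, 41.2 and 46.2 CPM in KO. Both overlapped between the groups, at adjusted p of 0.284 and 0.474. Creld2 had 31.0, 31.0 and 32.4 CPM in WT and 38.8, 31.7 and 29.4 CPM in KO, so that KO 1 alone stood above WT. Manf, a secreted factor that is induced by ER stress, had 66.0, 82.6 and 83.5 CPM in WT and 84.8, 80.6 and 86.6 CPM in KO. WT 1 alone lay below the rest.

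Dnajb9 encodes ERdj4, a co-chaperone of BiP and a known target of spliced XBP1. It was the lone chaperone with a negative log2 fold change, -0.20 ± 0.17, with a 95% interval of -0.58 to 0.18 and an adjusted p of 0.505. Its levels were 18.4, 14.3 and 12.2 CPM in WT and 15.2, 11.5 and 12.3 CPM in KO, highest in the number 1 library of each group. The remaining chaperone genes were Dnajb11, a BiP co-chaperone, at 65.9 ± 4.76 and 73.0 ± 2.33 CPM, Dnajc3, another co-chaperone, at 119 ± 5.36 and 124 ± 0.845 CPM, and Hyou1, the gene of a large ER chaperone, at 176 ± 6.95 and 191 ± 12.7 CPM. Their log2 fold changes were 0.15, 0.06 and 0.12, and none passed in either fit.

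The 4 protein disulfide isomerases, which form and rearrange disulfide bonds, all had positive log2 fold changes, and none passed with or without the block. Pdia3 had 285, 385 and 360.0 CPM in WT and 354.5, 374 and 420.1 CPM in KO, where WT 1 was lowest. Its log2 fold change was 0.16 ± 0.12. Pdia4 had 0.14 ± 0.08 and P4hb 0.03 ± 0.07. Pdia6 had 163, 178 and 180 CPM in WT and 184, 167 and 171 CPM in KO, with a log2 fold change of 0.0042 and a 95% interval of -0.15 to 0.16. Groups overlapped in each of the 4 genes.

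In ER-associated degradation 5 of 7 genes were negative on the log2 scale (median -0.02), and none was called in either fit. Edem1, which encodes a lectin that hands misfolded glycoproteins to degradation and is a known XBP1 target, had 689, 685 and 712 CPM in WT and 752, 668 and 644 CPM in KO. The KO libraries lay on both sides of the WT range, and the 95% interval of the log2 fold change was -0.19 to 0.16. Syvn1, the gene of the ubiquitin ligase HRD1, had 64.1 ± 1.92 and 61.5 ± 4.55 CPM. Its partner Sel1l had 86.0 ± 1.60 and 85.01 ± 3.35 CPM. Derl1 and Derl2, which encode parts of the channel back to the cytosol, had log2 fold changes of -0.05 ± 0.06 and 0.03 ± 0.07. Derl3, known from secretory cells, had 11, 11 and 4 reads in WT and 15, 6 and 1 reads in KO. At this depth its 95% interval, -1.78 to 1.03, allows changes in either direction.

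The 4 translocation genes were all positive in log2 fold change. Ssr2, which encodes a subunit of the translocon-associated protein complex, had 81.5, 89.7 and 87.0 CPM in WT and 97.3, 100.5 and 95.3 CPM in KO. The groups did not overlap. Its log2 fold change was 0.18 ± 0.06, at an adjusted p of 0.121, or 0.0380 with the block. Ssr1, of the same complex, had 198 ± 16.9 and 202 ± 17.9 CPM. Sec61a1 and Sec61b, subunits of the channel itself, had log2 fold changes of 0.09 ± 0.07 and 0.10 ± 0.09, and neither passed in either fit.

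Of the 32 ER genes that did not pass in the fit on group alone, 31 besides Derl3 had log2 fold changes from -0.36 to 0.20. The outermost bounds of their 95% intervals were -0.58, for Dnajb9, and 0.44, for Hspa5, which correspond to 0.668-fold and 1.36-fold. A p that missed the threshold does not show that these genes were alike in both groups. The 33 genes together took 5012, 5460 and 5579 CPM in WT and 5625, 5441 and 5522 CPM in KO. WT 1 was the lowest of the 6, and the other 5 libraries lay close to each other.

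The upward lean of the chaperones came unequally from the libraries. WT 1 was the lowest WT library in 23 of 33 genes, and KO 1 the highest KO library in 19 of 33. KO 1 was above WT 1 in 26 genes, with a median log2 difference of 0.16. KO 2 was above WT 2 in 15 genes and KO 3 above WT 3 in 16, with medians of -0.02 and -0.0030. For the 11 chaperones the medians of the pairs were 0.32, 0.12 and 0.04, with 10, 8 and 7 genes higher in KO. In all 3 pairs 8 ER genes were higher in KO and 3, Xbp1, Ern1 and Mbtps1, were lower. These counts by library and by pair were not taken over all genes, so they do not set the ER genes apart. Without both number 1 libraries 0 of 32 tested ER genes were higher, against 10.6% of all genes, and 3 were lower, again Xbp1, Ern1 and Mbtps1, against 10.5%. In that fit Hspa5, Calr, Canx and Ssr2 had log2 fold changes of 0.14, 0.11, 0.13 and 0.15, at adjusted p of 0.128, 0.144, 0.0821 and 0.101. What sets the number 1 libraries apart is not stated in the labels and was not tested.

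**Figure D3:**
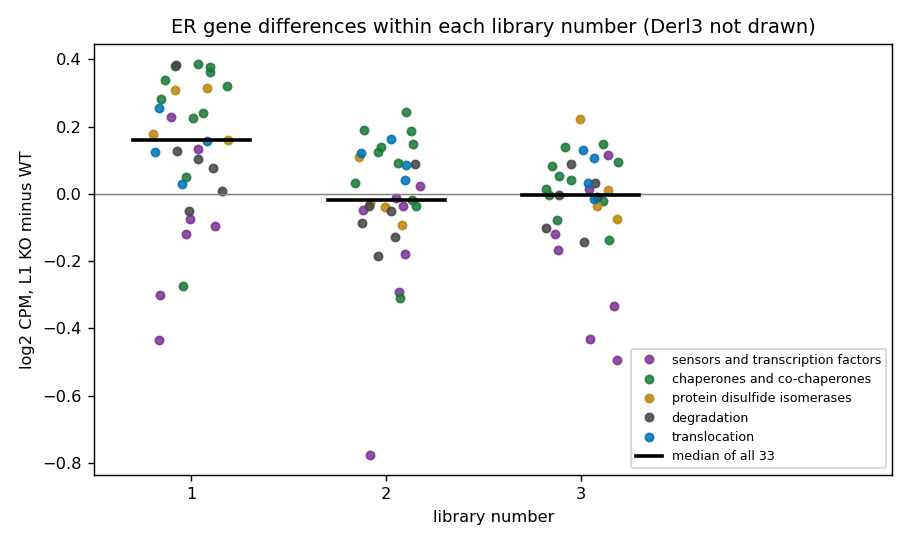
The difference in log2 CPM between KO and WT (y axis) is drawn within each library number (x axis) for 32 ER genes, coloured by role, with the median of all 33 as a black line. The median is 0.16 at number 1 and -0.02 and -0.0030 at numbers 2 and 3, and the lowest points in each column include Xbp1.

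Per kilobase of exon, from GENCODE M21, the ER genes spanned from 135 ± 11.96 CPM per kilobase for Calr down to 0.207 ± 0.092 for Derl3 in WT, and 27 of 33 were at 10 or more. Calr was followed by Pdia3 (109 ± 16.6), P4hb (108 ± 8.09) and Edem1 (108 ± 2.28), then Hsp90b1, Hspa5, Canx and Sec61b (94.2, 84.3, 82.4 and 81.7). Xbp1 came next with 69.3 ± 8.92 in WT and 48.0 ± 3.81 in KO, well above the genes of the sensors. Ern1 stood at 17.4 ± 2.11, Eif2ak3 at 6.35 ± 0.43 and Atf6 at 2.92 ± 0.10. Neighbours in this order differed by more than the sum of their SDs in 8 of 32 steps, so most adjacent ranks were not separated. The gap below Xbp1, 22.95 CPM per kilobase down to Pdia6, was one that exceeded the spread. In KO the mean of Xbp1 lay between those of Pdia6 (46.5 ± 2.45) and Ssr2 (52.4 ± 1.40). Lengths count every annotated exon, which lowers the value of genes with long exons that these cells do not use.

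**Figure D4:**
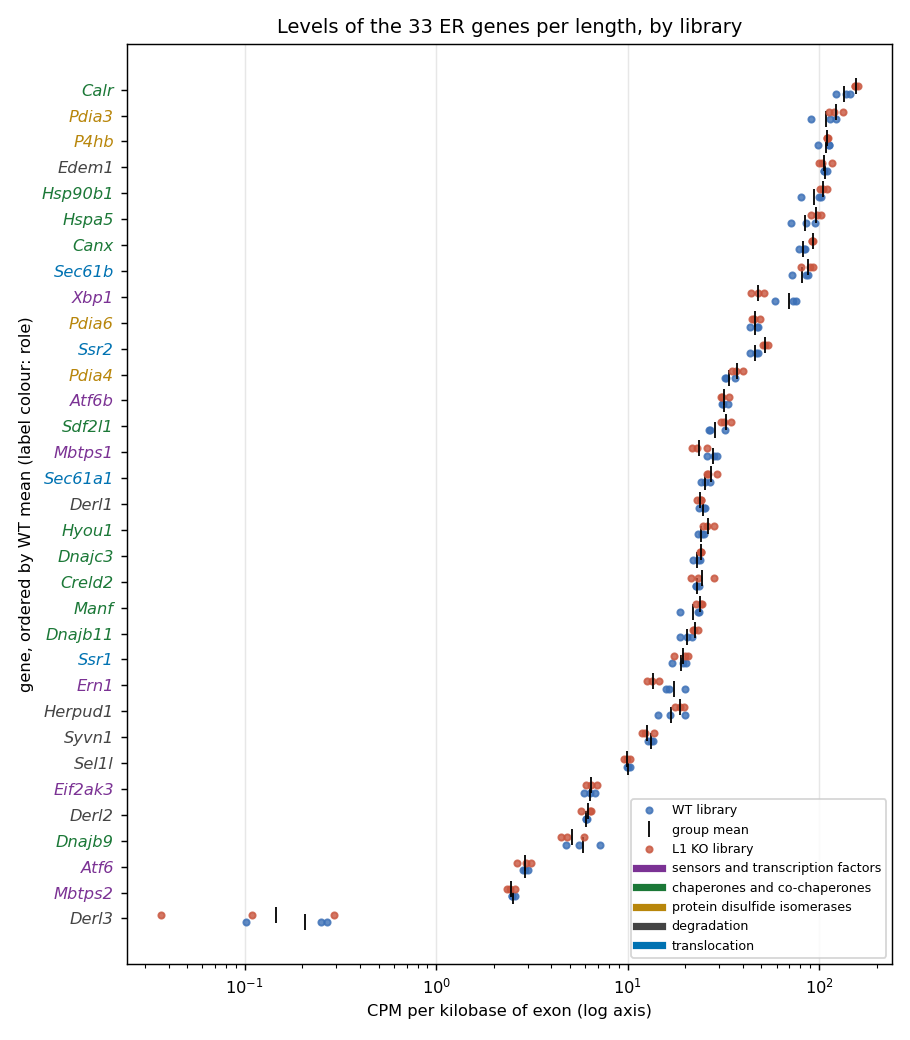
CPM per kilobase of exon (x axis, log scale) is drawn for the 33 ER genes (y axis, ordered by the WT mean), with 1 point per library and a bar at each group mean. Calr leads at 135 in WT, Derl3 is last at 0.207, and the points of WT and KO do not overlap for Xbp1 and Ern1 or for Calr, Canx, Ssr2 and Dnajb11.

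The promoters of several of these genes carry the sequence through which the response acts. The ER stress response element (ERSE) is bound by the factor NF-Y at its CCAAT end and by ATF6 or XBP1 at its CCACG end, and it was searched on both strands as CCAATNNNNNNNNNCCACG in windows from 250 bases before to 50 bases after the RefSeq transcription start, on GRCm38.p6. Windows were at hand for 27 of the 33 genes. An ERSE was found in 9 of the 27 genes (9 of 28 windows, 32.1%), against 39 of all 32851 windows, 0.119%. Since the genes were chosen by name as genes of this response, the excess is no independent result. The 9 were Hspa5, Calr, Canx, Hsp90b1, Creld2, Dnajc3, Pdia6, Syvn1 and Derl3, of which Hsp90b1 had a pair. The shorter element ERSE-II, ATTGG and CCACG separated by a single base of any kind, was found in Herpud1 and Dnajb11 (7.14% of windows against 0.0365%), and the element TGACGTGG, a binding sequence of ATF6 and XBP1, in none of them, against 0.676% of all windows. No match overlapped one of another element.

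The 6 windows shown are those of the genes called with the block, 3 that were higher in KO and 3 that were lower; Ssr2 is named only. Each reads 5′ to 3′ on the strand of its gene, and capitals mark an ERSE on either strand. Hspa5 lies at chr2:34771840-34772139 (plus strand), Calr at chr8:84846882-84847181 (minus), Canx at chr11:50325624-50325923 (minus), Xbp1 at chr11:5520391-5520690 (plus), Ern1 at chr11:106487747-106488046 (minus) and Mbtps1 at chr8:119558712-119559011 (minus).
Hspa5, higher: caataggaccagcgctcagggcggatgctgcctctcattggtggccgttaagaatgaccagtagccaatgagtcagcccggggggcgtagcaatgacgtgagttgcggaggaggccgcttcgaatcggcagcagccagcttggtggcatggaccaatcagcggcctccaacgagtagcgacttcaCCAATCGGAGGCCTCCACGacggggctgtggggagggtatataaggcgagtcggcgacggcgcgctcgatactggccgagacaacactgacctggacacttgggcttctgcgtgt
Calr, higher: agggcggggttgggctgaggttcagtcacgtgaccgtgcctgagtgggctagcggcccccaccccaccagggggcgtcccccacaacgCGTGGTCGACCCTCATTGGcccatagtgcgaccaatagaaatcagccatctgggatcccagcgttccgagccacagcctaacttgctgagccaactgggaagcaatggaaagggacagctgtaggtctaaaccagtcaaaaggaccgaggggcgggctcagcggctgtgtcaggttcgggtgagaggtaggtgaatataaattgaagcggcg
Canx, higher: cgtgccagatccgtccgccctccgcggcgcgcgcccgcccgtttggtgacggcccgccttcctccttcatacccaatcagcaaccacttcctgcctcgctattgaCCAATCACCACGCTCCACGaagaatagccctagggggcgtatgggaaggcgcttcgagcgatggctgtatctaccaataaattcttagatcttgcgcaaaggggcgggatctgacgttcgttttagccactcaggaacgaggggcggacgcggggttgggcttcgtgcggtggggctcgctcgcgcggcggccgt
Xbp1, lower: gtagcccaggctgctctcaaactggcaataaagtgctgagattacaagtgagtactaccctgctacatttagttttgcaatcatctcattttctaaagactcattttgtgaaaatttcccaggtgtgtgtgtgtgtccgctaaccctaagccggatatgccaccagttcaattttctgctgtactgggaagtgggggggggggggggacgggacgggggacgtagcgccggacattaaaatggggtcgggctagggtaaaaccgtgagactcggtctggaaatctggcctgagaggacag
Ern1, lower: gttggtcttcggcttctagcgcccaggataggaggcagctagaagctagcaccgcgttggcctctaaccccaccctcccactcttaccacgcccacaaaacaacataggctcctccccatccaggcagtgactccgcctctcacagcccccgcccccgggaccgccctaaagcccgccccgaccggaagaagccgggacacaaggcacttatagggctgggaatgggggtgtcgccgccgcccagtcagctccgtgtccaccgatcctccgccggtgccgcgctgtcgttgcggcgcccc
Mbtps1, lower: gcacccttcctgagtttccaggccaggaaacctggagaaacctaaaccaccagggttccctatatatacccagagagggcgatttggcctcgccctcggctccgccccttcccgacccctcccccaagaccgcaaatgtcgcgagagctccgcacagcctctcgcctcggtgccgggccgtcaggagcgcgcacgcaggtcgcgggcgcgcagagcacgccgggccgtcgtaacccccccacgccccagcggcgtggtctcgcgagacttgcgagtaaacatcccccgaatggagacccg

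The element begins 65 bases before the start in Hspa5, 145 in Canx and 162 in Calr, where it lies on the opposite strand. The windows of Xbp1, Ern1 and Mbtps1 hold no ERSE, ERSE-II or TGACGTGG. Among the 27 genes, the 9 with an ERSE had a median log2 fold change of 0.09, with 7 positive, and the 18 without one had a median of 0.03, with 11 positive. In the fit on group alone 0 of the 9 and 1 of the 18 were called. With the block, calls among the 9 were 3 higher and 0 lower, and among the 18 they were 0 higher and 3 lower, against 9.96% and 10.3% of all genes. With so few genes and calls, the counts do not set the ERSE genes apart. The log2 fold changes of the ERSE genes ranged from 0.20 for Hspa5 to -0.06 for Syvn1 and -0.37 for Derl3. The intervals of Syvn1 (-0.23 to 0.11) and Derl3 (-1.78 to 1.03) include both a rise and a fall. Derl3 had at most 15 reads in a library. These values therefore cannot decide whether each gene with the element rose. A match describes these letters in this window and is not evidence of binding.

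Other genes of the same compartment were read from 5 lists of 94 genes, of which 91 passed the count filter. In the fit on group alone 1 was higher and 1 lower (1.10% each), below the 2.14% and 2.43% of all tested genes. Both stood in the list of N-glycosylation and glycoprotein folding. Magt1, which encodes an oxidoreductase subunit of the oligosaccharyltransferase and a magnesium transporter, had 79.4, 84.3 and 82.1 CPM in WT and 93.5, 100.8 and 106 CPM in KO, and rose by a log2 fold change of 0.29 ± 0.07, at an adjusted p of 0.0453. Mcfd2, which encodes a cargo receptor subunit between ER and Golgi, had 54.2, 53.8 and 49.1 CPM in WT and 43.7, 39.9 and 42.6 CPM in KO, and fell with a log2 fold change of -0.32 ± 0.07, at an adjusted p of 0.0440. The groups did not overlap in either gene. Leaving out any library other than KO 1 moved both above the threshold, with log2 fold changes between 0.25 and 0.34 for Magt1 and between -0.35 and -0.27 for Mcfd2 over all 6 omissions.

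With the block 8 of the 91 were higher (8.79% against 9.96%) and 2 lower (2.20% against 10.3%). In the glycosylation list 4 of 16 were higher (25.0% against 9.96%) and 1 lower (6.25% against 10.3%), again Mcfd2. The 4 were Magt1 and the oligosaccharyltransferase subunits Rpn1, Rpn2 and Stt3a. Their log2 fold changes in that fit were 0.29, 0.23, 0.20 and 0.22 in that order. In the list of translocon, signal recognition and signal peptidase 3 of 20 were higher, Spcs2, Srp72 and Tram1, and Sec61a2 was lower. These genes are named because they were called, and Rpn1, beyond the limit of 4 for its list, was added after its values were seen. The lists of 20 ERAD genes and of 20 oxidoreductases, isomerases and co-chaperones had 0 calls in edgeR with or without the block. They had 0 in DESeq2 and limma-voom too. In the fit on group alone 1 gene of each had an unadjusted p under 0.05 (5.0% against 23.4% of all tested genes).

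Of 18 genes listed for the PERK and IRE1 arms, 15 passed the filter and 0 passed the threshold in the fit on group alone. Besides genes of their output, the list holds partners and regulators of these arms and related ER factors. The counts of calls therefore do not measure that output. In the same fit 2 had an unadjusted p under 0.05 (13.3% against 23.4% of all tested genes), and DESeq2 and limma-voom called 0. Atf4, the transcription factor translated under PERK signalling, had 140, 163 and 172 CPM in WT and 172, 198 and 205 CPM in KO. Its log2 fold change was 0.28 ± 0.09, at an adjusted p of 0.118, or 0.00404 with the block. Ddit3, which encodes the stress factor CHOP, had 20.4 ± 2.11 and 19.6 ± 2.27 CPM and did not pass in either fit. Chac1 had at most 1 read and Nupr1 0 reads in each library. Both are known as ATF4 targets of strong ER stress, and Ddit3, Chac1 and Nupr1 are named outside the rule for this list, after their values were seen.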

How the data were processed

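The values are whole-number read counts by gene symbol for 6 libraries, as the authors deposited them without normalization. The tools TopHat2 and HTSeq and the build GRCm38 are taken from the submitters' processing notes. The sources used here do not give their versions, the annotation or the strand setting, so overlapping and antisense genes could not be separated. Columns named Ctrl hold the WT libraries of the same number. The 5 summary rows stayed out of the tests; reads without a feature made up 50.4% to 51.9%, multiply aligned reads 9.14% to 10.2% and ambiguous reads 0.498% to 0.520% of the total, against 37.7% to 39.7% in genes.

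The tests ran in edgeR 4.0.16 under R 4.3.3, with filterByExpr (minimum count 10, minimum total 15; 13729 genes), TMM, glmQLFit (robust) on group alone, the quasi-likelihood F test and Benjamini-Hochberg adjustment over all tested genes at 0.05. Levels are mean ± SD of 3 libraries, the SE follows from the F statistic, and paired differences are in log2 CPM with a prior count of 2. The fitting code was tested on simulated data. Alternatives used DESeq2 1.42.0, limma-voom 3.58.1, other scalings and filters, the replicate block, and fewer libraries. Deviations from the group means correlated at 0.58, 0.17 and 0.34 between same-numbered libraries, all over the limit of 0.1 set for treating numbers as pairs. Because the 3 deviations of a group cancel out, the value of number 1 pushes those among numbers 2 and 3 upward. Passing the limit at numbers 2 and 3 is therefore no evidence that these numbers are pairs. Numbers 2 and 3 are less clearly paired, since WT 2 with KO 3 (0.29) and WT 3 with KO 2 (0.22) exceeded WT 2 with KO 2, and over the ER genes alone the same-number values were 0.67, -0.03 and 0.81. The pairing comes from the titles and, for number 1, from this check, not from a stated batch. Counts carry no molecular identifiers, so intervals cover the spread between libraries only.

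The ER genes, the lists of other ER genes and the marker lists were chosen with earlier results of these data known. All ER genes are accounted for. Values in each library are given for those called in either fit and for 15 chosen by name. They are also given for Pdia3, which falls outside this rule. Of the other lists, Magt1, Mcfd2, Atf4 and Ppp1r15a have such values. From each of these lists up to 4 called genes with the smallest p are named by rule. Older symbols were matched through RefSeq synonyms.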

Additional observations from a re-analysis of the deposited data

How the results depend on the processing

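The count of ER genes lower in KO, 1 in the main analysis, was 2 with no count filter and with DESeq2, 3 with the replicate block and without both number 1 libraries, and 0 to 3 when single libraries were left out. The count of those higher, 0, was 4 with the replicate block and 0 under each of the other 13 alternatives. For the other ER genes, 1 higher and 1 lower in the main analysis, the counts were 0 higher with library size alone, 3 higher with DESeq2, 0 and 0 with limma-voom, 8 and 2 with the replicate block and 11 and 2 without both number 1 libraries. When single libraries were left out they ran from 0 to 5 higher and from 0 to 2 lower. The count over all genes moved too, from 628 to 109 without WT 2 and to 2177 without KO 1, and to 2785 with the block, and the cause was not tested. Xbp1 was negative under all 14 alternatives, from -0.64 to -0.46, and called in 10. The median log2 fold change of the ER genes ran from 0.0023, with library size alone, to 0.088, and that of all genes from -0.04 to 0.0059. With 3 libraries a group, changes within the intervals given could not be resolved.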
